A study of Rattus norvegicus with 6 samples.

Results

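The 8 genes described here, Ly6al, Clu, Anxa1, Areg, Ereg, Yap1, Ccn1 and Ccn2, were taken by name from the 28282 gene symbols of the count tables as genes of the regenerative state that intestinal epithelium can enter after injury. All 8 symbols were present. Nuclei came from the ileum, the last stretch of the small intestine, of 6 male Sprague-Dawley rats aged 6 weeks, with 1 library per rat, killed 24 h after surgery. The 3 rats of the SAP group, a model of severe acute pancreatitis, received 3% sodium taurocholate, a bile salt, at 0.1 mL per 100 g, run backwards into the pancreatic duct, which was clamped for 5 min. The 3 CON rats had a sham laparotomy with no infusion. Pentobarbital anaesthesia, laparotomy and fasting after surgery were shared by both groups. The dissection avoided Peyer's patches and trimmed mesenteric fat.

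After injury, intestinal epithelium can lose its crypt stem cells and refill the crypt from cells that resemble fetal epithelium. In mouse, Clu, which encodes the secreted chaperone clusterin, marks revival stem cells, and Anxa1, which encodes the phospholipid-binding protein annexin A1, and Ly6a, which encodes the surface protein Sca-1, mark fetal-like epithelium. Ly6al is a rat gene of the Ly6 family of membrane-anchored surface proteins. Yap1 encodes the effector of the Hippo pathway, which enters the nucleus when that pathway is off and drives transcription with TEAD factors. Ccn1 and Ccn2 encode secreted matricellular proteins and are textbook YAP targets. Areg and Ereg encode amphiregulin and epiregulin, ligands of the EGF receptor, whose signal drives epithelial repair.

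TEAD factors bind the letters CATTCC, which read GGAATG on the opposite strand, and the element TGACGTCA, which reads the same on both strands, is bound by CREB, the cyclic AMP response factor. The 250 bases before the start of 3 of the genes are shown because they hold these letters. They come from the RefSeq promoter table of the GRCr8 build, in which 5 of the 8 genes had an entry. Of the 33469 promoters of that table, 12.1% held CATTCC on either strand and 1.59% held TGACGTCA. Capitals mark the matches, and each sequence reads towards the start of the gene.
Ccn1, chr2:237225690-237225939, minus strand: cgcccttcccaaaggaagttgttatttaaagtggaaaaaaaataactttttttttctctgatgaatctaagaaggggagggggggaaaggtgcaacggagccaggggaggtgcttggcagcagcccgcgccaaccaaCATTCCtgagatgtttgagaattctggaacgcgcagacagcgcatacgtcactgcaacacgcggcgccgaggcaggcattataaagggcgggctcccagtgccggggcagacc
Ccn2, chr1:22624615-22624864, minus strand: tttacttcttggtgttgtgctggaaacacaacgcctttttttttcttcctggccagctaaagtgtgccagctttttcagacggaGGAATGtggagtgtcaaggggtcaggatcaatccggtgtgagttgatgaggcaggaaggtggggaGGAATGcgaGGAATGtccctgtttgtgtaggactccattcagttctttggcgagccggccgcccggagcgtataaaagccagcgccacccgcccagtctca
Areg, chr14:17265642-17265891, minus strand: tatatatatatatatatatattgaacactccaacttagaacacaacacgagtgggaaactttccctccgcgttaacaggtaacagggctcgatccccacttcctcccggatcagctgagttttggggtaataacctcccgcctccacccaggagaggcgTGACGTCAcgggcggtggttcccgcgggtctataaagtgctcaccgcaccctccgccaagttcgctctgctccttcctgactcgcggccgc
Ccn2 held 3 matches to the TEAD letters and Ccn1 held 1, while Areg held 1 match to the cyclic AMP element. Anxa1 and Yap1 held 1 match each to the TEAD letters. A match of letters does not show that a factor binds there.

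Of 90461 barcodes, 40970 nuclei passed the thresholds of the study's methods, with 5549260 to 28771508 UMIs (unique molecular identifiers, which count captured transcripts) per library. Clustering without the 8 genes gave 25 clusters, of which 7 stayed unnamed, and 16 classes were named from markers. Epithelial clusters held 30738 nuclei and the others 10232. Levels are given as CPM, the UMIs of a gene scaled to 1000000 UMIs of that library and class, with libraries in the order of replicates 1 to 3. CPM does not correct for gene length, so levels are compared between classes and not between genes. Of the classes, 10 epithelial and 8 others had at least 10 nuclei in every library and were tested. In 2 of the libraries, CON replicate 2 and SAP replicate 1, the barcode lists reached below 1000 UMIs. The median mitochondrial share of the libraries ran from 0.125% to 0.6997% in CON and from 0.387% to 1.84% in SAP. Pairs of libraries shared 195 to 746 barcode names, of which 0 had identical profiles. In sums over several classes, fewer nuclei of a class and less RNA per nucleus cannot be told apart.

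The genes differed in where they were found. Ly6al was detected in every class tested, with its highest means over the 6 libraries in cluster 2 and enterocyte-like nuclei. Areg was highest in goblet-like and enterocyte-like nuclei. Yap1 was spread over epithelial, stromal and immune classes. Clu, Anxa1, Ccn1 and Ccn2 were at or under 10.7 CPM in each of the 10 epithelial classes and reached their highest levels outside the epithelium. No neighbours in the order of classes differed by more than the SD between libraries for any of the 8 genes. That SD includes differences between rats and groups, which the classes of a library share. Within libraries, Ly6al was higher in cluster 2 than in enterocyte-like nuclei, next in order, in 6 of 6 libraries. Cluster 0 lay above endothelial-like nuclei, next in order, in 2 of 6.

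**Figure D1:**
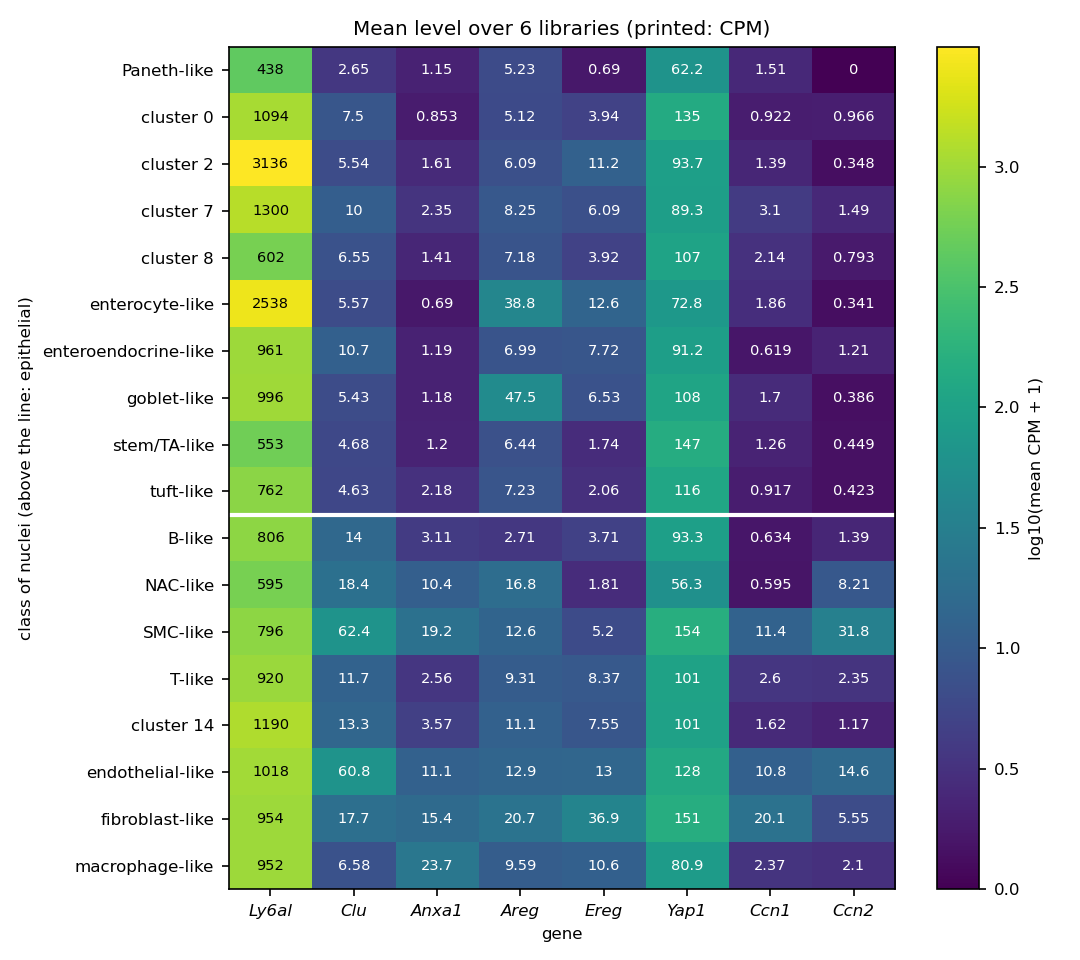
Mean level of each gene (columns) over the 6 libraries in each of the 18 classes with at least 10 nuclei in every library (rows), printed in CPM and coloured by log10(CPM + 1), epithelial classes above the white line. Ly6al reached 3136 CPM in cluster 2, while Ccn2 reached 31.8 CPM in SMC-like (smooth muscle) nuclei and at most 1.49 CPM in epithelial classes.

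Between SAP and CON, none of the 8 genes passed the test over all nuclei or over all epithelial nuclei (edgeR quasi-likelihood test, adjusted p under 0.05 and a log2 fold change of at least 0.5). The same test called 0% of the 19187 genes tested over all nuclei and 0% of the 16841 tested over epithelial nuclei, where 1618 and 1896 genes had an unadjusted p under 0.05. DESeq2 called 214 and 300 genes on the same sums, with Areg as the only member among them in each. In the epithelium 6 of the 7 members tested had a positive log2 fold change, with a median of 0.54 beside -0.00087 for all genes tested. Ccn2 did not pass the filter on low counts there.

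**Figure D2:**
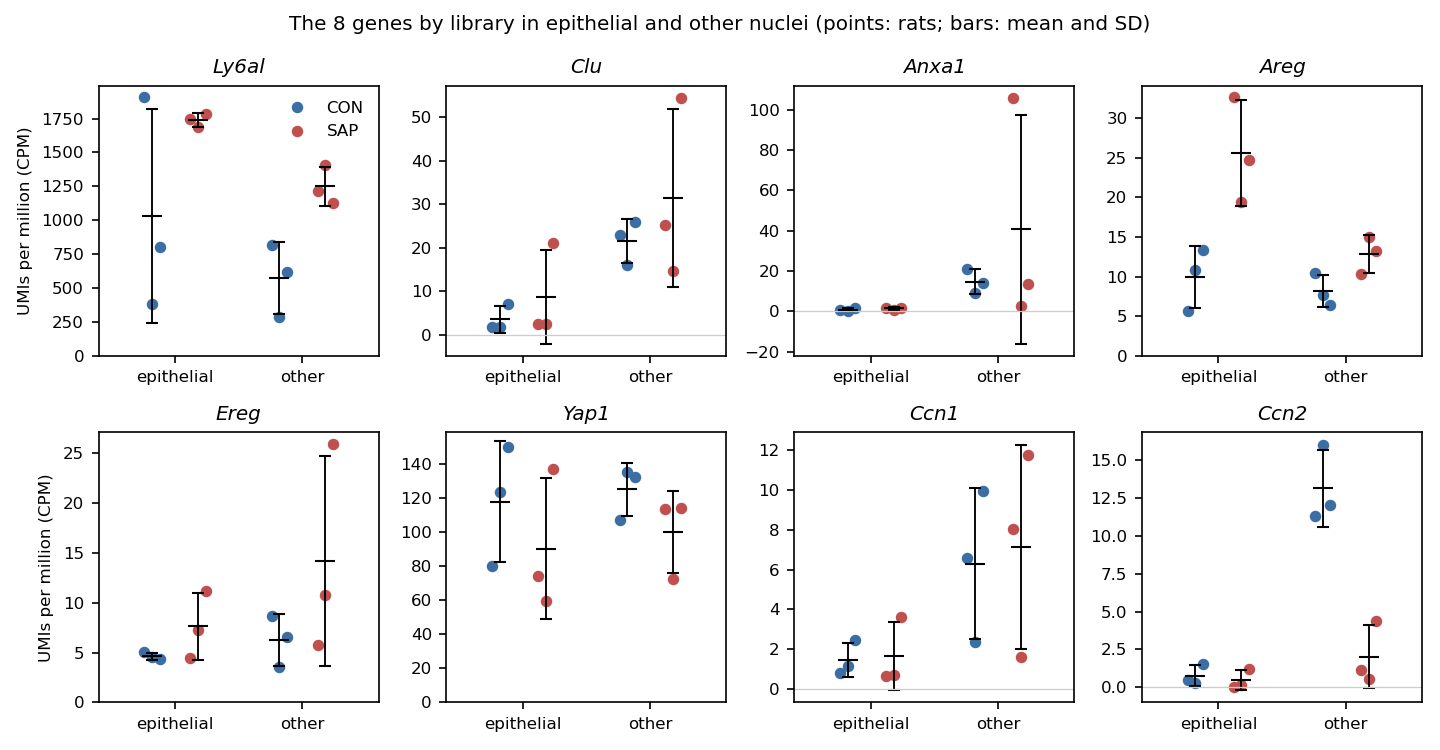
Level (CPM) of each gene in epithelial nuclei and in all other nuclei, 1 point per rat, with the mean and SD of the 3 CON (blue) and 3 SAP (red) rats. Epithelial Areg lay at 5.62 to 13.3 CPM in CON, while the SAP rats lay between 19.5 and 32.7 CPM, and Ccn2 of other nuclei lay at 11.3 to 16.02 CPM in CON and between 0.538 and 4.39 CPM in SAP.

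Areg, the EGF receptor ligand, was the only member whose groups did not overlap in the epithelium. Its epithelial level was 5.62, 10.8 and 13.3 CPM in CON and 32.7, 19.5 and 24.7 CPM in SAP. All 3 SAP rats lay above all 3 CON rats, as they did for 6.83% of the genes tested there. The log2 fold change was 1.44 (SE 0.34, edgeR adjusted p = 0.398), and the adjusted p was 0.0118 in DESeq2. Over all nuclei the log2 fold change was 1.32 (SE 0.37, edgeR adjusted p = 0.545), and the adjusted p was 0.0406 in DESeq2.

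Within classes, goblet-like nuclei, the mucus cells, held Areg at 19.2, 28.5 and 32.1 CPM in CON and 100.4, 72.1 and 32.7 CPM in SAP. The groups did not overlap (6.15% of genes tested in that class were higher in this way), though SAP replicate 3 lay close to CON replicate 3, and the log2 fold change was 1.41 (SE 0.44, edgeR adjusted p = 0.554). Enterocyte-like nuclei held 15.8, 17.7 and 30.2 CPM in CON and 74.4, 26.6 and 68.4 CPM in SAP, with SAP replicate 2 inside the CON range. There the log2 fold change was 1.46 (SE 0.46, edgeR adjusted p = 0.615). Stem/TA-like nuclei, of crypt stem and transit-amplifying cells, held 0.577, 6.01 and 1.82 CPM in CON and 7.25, 14.3 and 8.72 CPM in SAP, from 43 UMIs in all, and the groups did not overlap (6.92% of genes tested), with a log2 fold change of 1.88 (SE 0.77, edgeR adjusted p = 0.601). Cluster 0, an unnamed cluster closest to stem/TA-like nuclei, held 1.43, 5.697 and 1.92 CPM in CON and 6.85, 7.31 and 7.51 CPM in SAP, and the groups did not overlap (8.06% of genes tested), with a log2 fold change of 1.37 (SE 0.61, edgeR adjusted p = 0.435). The levels of both stem/TA-like nuclei and cluster 0 lay below those of non-epithelial nuclei of the same library in all 6 libraries, which were 10.4, 7.71 and 6.43 CPM in CON and 10.3, 15.1 and 13.3 CPM in SAP, and were not read as expression. The SAP effect in stem/TA-like nuclei exceeded that in non-epithelial nuclei by 1.34 on the log2 scale (SE 0.70, edgeR adjusted p = 0.935), which did not pass the test.

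Areg was uneven inside both named classes. Of the goblet-like clusters, cluster 9, whose leading genes included the mucin gene Muc2, held 97.4 ± 58.6 CPM (SD, n = 6), against 12.3 ± 11.5 CPM in cluster 4, whose leading genes included Spdef, the transcription factor of secretory cells. Of the enterocyte-like clusters, cluster 6, led by the apolipoprotein gene Apoa4, held 63.1 ± 45.2 CPM. Cluster 5, whose leading genes included Slc10a2, the ileal bile acid transporter, held 14.5 ± 7.34 CPM. Cluster 9 lay above cluster 4 in 6 of 6 libraries, and cluster 6 above cluster 5 in 5 of 6. The Areg level of a class thus also moves with its mix of clusters, which was not held fixed between the groups. In nuclei thinned to 1200 UMIs, 1.69% ± 0.548 of CON and 4.6003% ± 2.16 of SAP enterocyte-like nuclei had an Areg UMI (SD, n = 3 each, two-sided exact permutation p = 0.1), against 3.64% and 7.205% before thinning. The smallest p that 3 rats against 3 allow is 0.1. The share over all non-epithelial nuclei was 0.806% ± 0.201 in CON and 1.28% ± 0.569 in SAP. It was 0.857% and 2.52% in SMC-like nuclei and 0.247% and 0.203% in B-like nuclei, the tested class with the lowest mean Areg level. Median depths were 1911 UMIs in enterocyte-like and 1868 UMIs in non-epithelial nuclei.

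**Figure D3:**
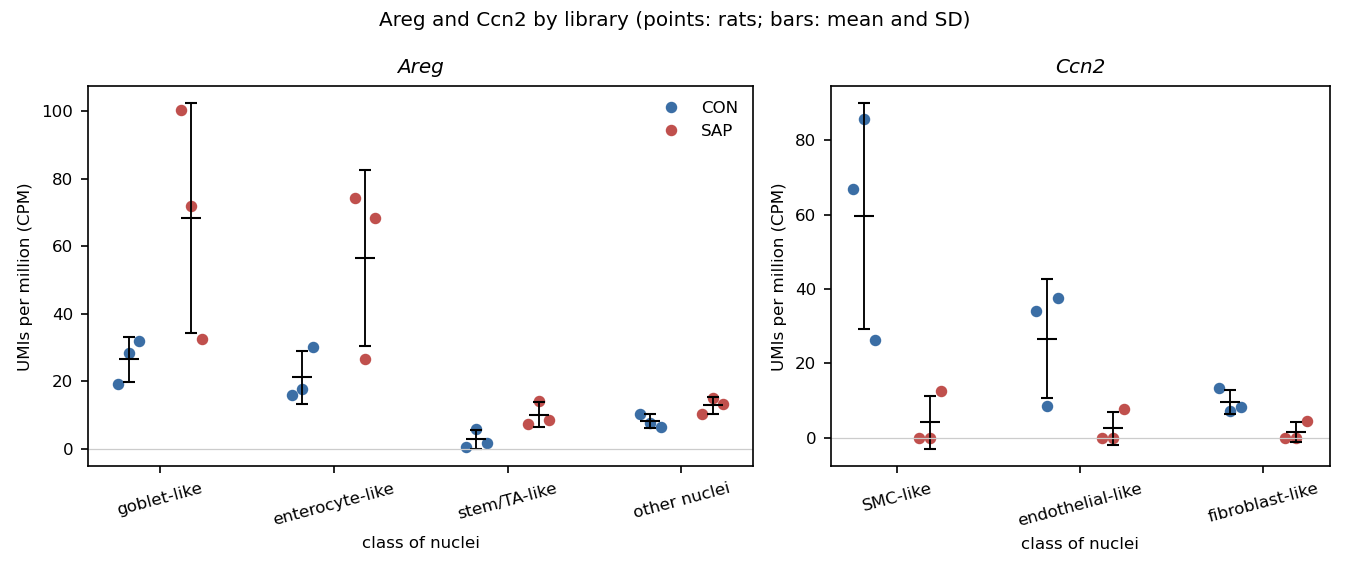
Areg (left) and Ccn2 (right) in CPM by class, 1 point per rat, with the mean and SD of 3 CON (blue) and 3 SAP (red) rats. Areg of SAP reached 100.4 CPM in goblet-like nuclei, and Ccn2 was at 0 in SMC-like nuclei of SAP replicates 1 and 2.

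Ereg, the other EGF receptor ligand, was highest in fibroblast-like nuclei, at 48.8, 0 and 16.4 CPM in CON and 31.7, 8.09 and 116 CPM in SAP. Of those 139 UMIs, 101 came from SAP replicate 3. Over the epithelium it lay at 5.03, 4.53 and 4.37 CPM in CON and 4.49, 7.31 and 11.1 CPM in SAP, with a log2 fold change of 0.60 (SE 0.40, edgeR adjusted p = 0.587). In T-like nuclei the groups did not overlap (4.45% of genes tested), at 5.53, 3.45 and 4.18 CPM in CON and 12.8, 12.8 and 11.5 CPM in SAP. That log2 fold change was 1.41 (SE 0.49, edgeR adjusted p = 0.744), from 68 UMIs. Areg and Ereg were found together in 31 epithelial nuclei where independence within library and cluster gives 13.8, and in 31 other nuclei where it gives 9.005. That expectation takes no account of depth differences within a cluster, and doublets were kept. Most pairs of the 8 genes exceeded it, so the excess was not read as shared expression of this pair.

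Ly6al showed a wide spread between the CON rats. Over the epithelium its level was 1907, 386 and 801 CPM in CON and 1747, 1685 and 1786 CPM in SAP. CON replicate 1 lay above every SAP rat, so the groups overlapped, and the log2 fold change was 0.54 (SE 0.66, edgeR adjusted p = 0.771). Without CON replicate 1 it was 1.79 and without CON replicate 2 it was 0.076. Ly6 genes resemble one another, so the authors' counting could split reads among them, and the level is uncertain to that extent.

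By mean over the 6 libraries, Ly6al was highest in cluster 2 and then in enterocyte-like nuclei. The latter lay above cluster 7, next in order, in 4 of 6 libraries. Cluster 7, unnamed and closest to stem/TA-like nuclei, held 527, 209 and 1015 CPM in CON and 1827, 2464 and 1757 CPM in SAP. Its best marker list was goblet, and its leading genes were Spink4, a marker on that list, and mostly ribosomal protein genes. Its summed markers averaged 11413 CPM for goblet, 22698 CPM for Paneth and 1286 CPM for stem cells. The stem sum was 3061 CPM in stem/TA-like nuclei. Cluster 2 was unnamed, closest to enterocyte-like nuclei, and its leading genes were Car4, Ly6al itself, Ceacam20 and the chloride exchanger gene Slc26a3. Its summed enterocyte markers averaged 2887 CPM, against 12833 CPM in enterocyte-like nuclei. It held 7402, 1048 and 1508 CPM in CON and 3556, 2229 and 3074 CPM in SAP. Enterocyte-like nuclei held 7277, 982 and 1225 CPM in CON and 1798, 1391 and 2555 CPM in SAP. In both, CON replicate 1 was the highest library and the groups overlapped. Over the 16 named classes the genes of most like pattern were Mep1b, a brush border protease, Slc51a, a bile acid transporter subunit, and Skil, with Pearson r of 0.96 for each, as a description over class means that share libraries.

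In most classes the groups separated. In 13 of the 18 classes all 3 SAP rats lay above all 3 CON rats after TMM scaling. Of the genes tested over these classes together, 6.15% did so. The classes came from the same rats, so these separations are not independent of one another. After that scaling the groups overlapped in the other 5 classes, which were cluster 2, cluster 14 and the enterocyte-like, goblet-like and Paneth-like nuclei. Without TMM scaling, Paneth-like nuclei did not overlap, at 208, 193 and 244 CPM in CON and 657, 766 and 561 CPM in SAP. Neither Ly6al nor another member was called in any of the 18 classes, and edgeR called 0.00917% of the genes tested, 14 over the 18 classes. With the replicate number as a block this was 73 genes, with 0 of the members among them. Stem/TA-like nuclei held 269.99, 129 and 331 CPM in CON and 671, 1233 and 683 CPM in SAP, with a log2 fold change of 1.85 (SE 0.40, edgeR adjusted p = 0.326). Cluster 0 was led by Slc5a8, and the mitosis genes Hjurp and Plk1 were also among its leading genes. Its summed markers averaged 731 CPM for stem and 524 CPM for transit-amplifying cells. Those sums were 3061 and 775 CPM in stem/TA-like nuclei, and 855 and 625 CPM in B-like nuclei. Ly6al of cluster 0 was 500.02, 238 and 547 CPM in CON and 1663, 2201 and 1414 CPM in SAP, with a log2 fold change of 2.15 (SE 0.40, edgeR adjusted p = 0.3699). Tuft-like nuclei, of chemosensory cells, had a log2 fold change of 1.77 (SE 0.36, edgeR adjusted p = 0.223), and enteroendocrine-like nuclei, of hormone cells, 1.72 (SE 0.42, edgeR adjusted p = 0.211). The other 9 such classes had log2 fold changes of 1.20 to 1.84. DESeq2 called Ly6al in cluster 0, in tuft-like, stem/TA-like and enteroendocrine-like nuclei, and in SMC-like nuclei. It called many more genes than edgeR over the single classes, with the counts given at the end, so these calls are not particular to Ly6al.

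The groups also separated outside the epithelium, where all nuclei together held 817, 287 and 618 CPM in CON and 1216, 1405 and 1128 CPM in SAP. T-like nuclei were at 747, 308 and 633 CPM in CON and 1303, 1435 and 1091 CPM in SAP, and SMC-like nuclei at 606, 231 and 592 CPM in CON and 1023, 1274 and 1048 CPM in SAP. Transcripts of enterocytes were also found in these nuclei. The summed level of the 10 enterocyte markers present in the tables, of 11 listed, was 368 to 2160.3 CPM in non-epithelial nuclei of CON and 1560.2 to 3739.6 CPM in those of SAP. The mean was higher in SAP than in CON for 9 of the 10 markers, as for Apoa1, an apolipoprotein gene, at 428 CPM in CON and 1563 CPM in SAP, and Fabp1, a fatty acid binding protein gene, at 113 CPM in CON and 300.3 CPM in SAP. Alpi was at 0 in SAP replicates 1 and 2, and the other 9 markers were above 0 in every library. Barcodes under 1200 UMIs, which were not counted as nuclei, held Ly6al at 1307, 346 and 804 CPM in CON and at 1785, 1769.6 and 1538 CPM in SAP. The part of free RNA in the Ly6al levels was not tested.

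Set against non-epithelial nuclei of the same library, stem/TA-like nuclei were lower in all 6 libraries, at 0.331, 0.448 and 0.536 times that level in CON and at 0.552, 0.878 and 0.606 times in SAP, and were not read as expressing the gene. Cluster 8 and Paneth-like nuclei also lay below in all 6 libraries, and tuft-like nuclei lay below in 5 of 6 and enteroendocrine-like nuclei in 4 of 6. Cluster 0 lay below in CON, at 0.612, 0.832 and 0.885 times, and above in SAP, at 1.37, 1.57 and 1.25 times (two-sided exact permutation p = 0.1, n = 3 each, the smallest possible). The ratios of stem/TA-like and enteroendocrine-like nuclei also separated the groups, with the same p. Cluster 7 lay above in all 3 SAP libraries and in CON replicate 3. Summed enterocyte markers of cluster 0 averaged 638 CPM in CON and 2386 CPM in SAP. Those of non-epithelial nuclei averaged 1036 CPM in CON and 2623 CPM in SAP. The relative difference of these markers was thus larger in cluster 0, which was not tested. The SAP effect in cluster 0 exceeded that in non-epithelial nuclei by 0.87 on the log2 scale (SE 0.19, edgeR adjusted p = 0.217). This comparison was added after the values were seen, and it passed the test in none of the epithelial classes. It gave -1.41 (SE 0.61, edgeR adjusted p = 0.971) in enterocyte-like nuclei and -0.95 (SE 0.52, edgeR adjusted p = 0.9995) in cluster 2. In the remaining epithelial classes it ran from -0.14 in goblet-like nuclei to 0.71 in cluster 7. Enterocyte-like nuclei were at 4.77 ± 3.66 times the non-epithelial level in CON and 1.58 ± 0.64 times in SAP (SD, n = 3 each). Single rats were at 8.91, 3.43 and 1.98 times in CON and at 1.48, 0.991 and 2.27 times in SAP. These groups overlapped (two-sided exact permutation p = 0.2), and CON replicate 1 was the highest library. The SAP effect in enterocyte-like nuclei minus that in stem/TA-like nuclei was -1.95 on the log2 scale (SE 0.78, edgeR adjusted p = 0.807), which did not pass the test.

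**Figure D4:**
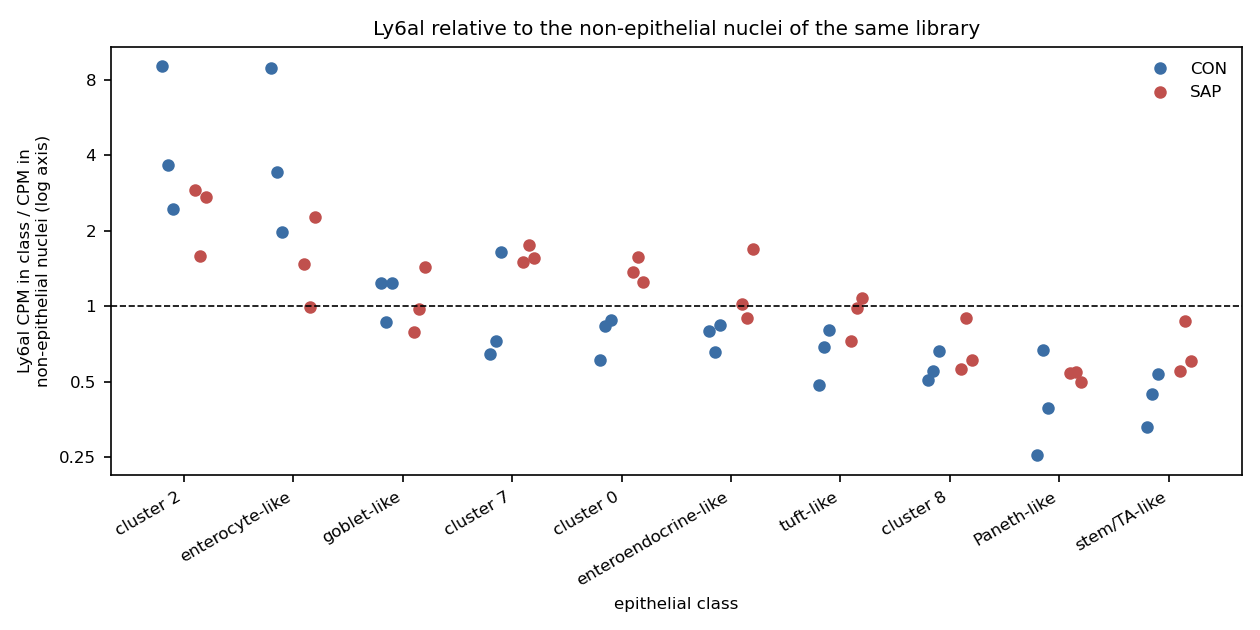
Ly6al CPM of each epithelial class divided by the CPM of non-epithelial nuclei of the same library, on a log axis, 1 point per rat (blue, CON; red, SAP), with a dashed line at equal levels. Cluster 2 lay above the line in all 6 libraries, stem/TA-like nuclei lay below it in all 6, and cluster 0 lay below it in CON and above it in SAP.

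With each of the 10 epithelial classes given equal weight, the mean log2(CPM + 10) of Ly6al was 9.01 ± 0.79 in CON and 10.39 ± 0.15 in SAP (SD, n = 3 each). That of Areg was 4.09 ± 0.14 in CON and 4.53 ± 0.12 in SAP. For both genes, and for Ereg, all SAP rats lay above all CON rats, with a two-sided exact permutation p of 0.1, the smallest possible. Of the 22558 genes with at least 10 epithelial UMIs, 3.88% did so. The equal weights include classes not read as expressing the gene, which were stem/TA-like nuclei for Ly6al, and stem/TA-like nuclei and cluster 0 for Areg. In cluster 2 and enterocyte-like nuclei, the classes highest in Ly6al, its groups overlapped. The separation of Ereg was not read as a difference. Its level in enteroendocrine-like nuclei of SAP replicate 1, 20.3 CPM, came from 1 UMI in 29 nuclei. Over the whole epithelium, Ereg of SAP replicate 1, at 4.49 CPM, lay inside the CON range. Thinned to 1200 UMIs, 39.4% ± 10.6 of CON and 76.04% ± 4.28 of SAP epithelial nuclei had a Ly6al UMI, and 36.5% ± 11.4 of CON and 71.3% ± 6.25 of SAP other nuclei did.

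Clu and Anxa1, the revival and fetal-like markers, were scarce in the epithelium. Clu lay at 1.86, 1.75 and 7.03 CPM in CON and 2.57, 2.46 and 21.1 CPM in SAP. Replicate 3 was the highest library of each group, the groups overlapped, and the log2 fold change of 1.20 (SE 0.83, edgeR adjusted p = 0.604) was -0.28 without SAP replicate 3. After thinning, 0.781% of 30738 epithelial nuclei pooled over rats had a Clu UMI, and 3.39% of the other nuclei did. The Wilson 95% interval of the epithelial share, 0.688% to 0.886%, covers counting error and not the spread between rats. Single CON rats ran from 0.242% (replicate 1) to 0.820% (replicate 3). SAP replicate 2 had 0.370%, SAP replicate 1 0.401% and SAP replicate 3 3.09%. Epithelial Clu lay below the non-epithelial nuclei of the same library in every library. Barcodes under 1200 UMIs held Clu at 18.2, 3.88 and 19.5 CPM in CON and 5.68, 6.62 and 47.96 CPM in SAP, above the epithelium of the same library each time. The epithelial share was therefore not read as expression. Clu was highest in cluster 22, 137 unnamed nuclei whose leading genes included the complement receptor gene Cr2, with 130 UMIs of which 89 came from SAP replicate 3. In SMC-like nuclei Clu was 53.2, 7.44 and 29.8 CPM in CON and 91.99, 113 and 79.3 CPM in SAP. The groups did not overlap (8.48% of genes tested), and the log2 fold change was 1.52 (SE 0.48, edgeR adjusted p = 0.219).

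Anxa1 had 80 UMIs in epithelial nuclei, at 0.906, 0.412 and 1.48 CPM in CON and 1.92, 0.5097 and 1.95 CPM in SAP. The groups overlapped, with a log2 fold change of 0.52 (SE 0.71, edgeR adjusted p = 0.8001). It was highest in neutrophil-like nuclei, with 126 UMIs in 143 nuclei of which 76 came from SAP replicate 1, and then in mesothelial-like nuclei, with 86 UMIs in 158 nuclei. Neither class had 10 nuclei in every library, and neither was tested. Over all nuclei the log2 fold change was 1.02 (SE 0.94, edgeR adjusted p = 0.837), and it was -0.38 without SAP replicate 1.

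Yap1 was highest in SMC-like nuclei (154 ± 33.3 CPM), fibroblast-like nuclei (151 ± 45.3 CPM) and stem/TA-like nuclei (147 ± 50.2 CPM, SD, n = 6), which did not differ beyond that spread. Enterocyte-like nuclei held 72.8 ± 23.9 CPM. Immune classes held as much, with 101 ± 22.6 CPM in T-like, 93.3 ± 30.4 CPM in B-like and 80.9 ± 22.8 CPM in macrophage-like nuclei. The part of free RNA in the Yap1 levels was not tested. Over the epithelium Yap1 was at 79.98, 123 and 150.3 CPM in CON and 74.2, 59.5 and 137 CPM in SAP, and the groups overlapped. The log2 fold change was -0.41 (SE 0.24, edgeR adjusted p = 0.541), and it was negative in 13 of the 17 classes in which Yap1 was tested. In enterocyte-like nuclei all SAP rats lay below all CON rats after TMM scaling (7.97% of genes tested), with a log2 fold change of -0.50 (SE 0.27, edgeR adjusted p = 0.646), and in T-like nuclei as well (6.50% of genes tested), with -0.43 (SE 0.23, edgeR adjusted p = 0.815). By library total, enterocyte-like nuclei overlapped, at 62.2, 99.1 and 100.6 CPM in CON and 46.3, 49.5 and 79.3 CPM in SAP, while T-like nuclei did not. Over all nuclei the TMM-scaled groups did not overlap, with 117 ± 5.62 CPM in CON and 87.04 ± 15.95 CPM in SAP (SD, n = 3 each), as for 9.06% of genes tested. Scaled by library total they overlapped, at 86.4, 125 and 145 CPM in CON and 80.4, 62.6 and 127 CPM in SAP.

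The YAP targets Ccn1 and Ccn2 were highest in stroma. Ccn1 averaged 20.1 ± 12.8 CPM in fibroblast-like, 11.4 ± 12.2 CPM in SMC-like and 10.8 ± 8.82 CPM in endothelial-like nuclei (SD, n = 6), the highest of the tested classes, and these did not differ beyond that spread. Over the epithelium it was 0.816, 1.13 and 2.44 CPM in CON and 0.641, 0.6796 and 3.62 CPM in SAP. The log2 fold change was 0.13 (SE 0.68, edgeR adjusted p = 0.954), and its sign changed without CON replicate 1, CON replicate 2 or SAP replicate 3. Over the 16 named classes Ccn1 was most like C4a and Cfb, genes of complement, and Wnt5a, a Wnt ligand gene (Pearson r 0.95 to 0.96, as a description). Its highest level among these was in mesothelial-like nuclei, where it averaged 82.9 CPM from 6 UMIs, 4 of them in the 6 nuclei of SAP replicate 1.

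Ccn2 in SMC-like nuclei was 66.9, 85.6 and 26.2 CPM in CON and 0, 0 and 12.5 CPM in SAP, from 44, 23, 29, 0, 0 and 11 UMIs. All CON rats lay above all SAP rats, as for 986 of the 8934 genes tested in that class (19.5% had no overlap in one direction or the other), and the log2 fold change was -3.00 (SE 0.76, edgeR adjusted p = 0.134). Without CON replicate 3 the edgeR adjusted p was 0.0422, at a log2 fold change of -3.42. Without SAP replicate 3, the SAP library that held Ccn2, the log2 fold change was -7.81, no bound since SAP was then at 0, with an edgeR adjusted p of 0.0875, and in the other fits that left out 1 library the log2 fold change ran from -2.80 to -2.52 with adjusted p from 0.198 to 0.398. Without CON replicate 1 it was not tested. A count of 0 allowed up to 17.2 CPM in SAP replicate 1 and 9.12 CPM in SAP replicate 2 (3 counts of the total, counting error only). Endothelial-like nuclei held 34.03, 8.46 and 37.5 CPM in CON and 0, 0 and 7.69 CPM in SAP. NAC-like nuclei, of neuron-associated cells, held 22.5, 12.5 and 14.3 CPM in CON and 0 in every SAP library, from 7 UMIs. Ccn2 was too low to be tested in these. SAP replicates 1 and 2 held 10 and 19 NAC-like nuclei and 49 and 86 endothelial-like nuclei. In NAC-like nuclei of SAP replicate 1, 1 UMI equals 39.0 CPM, above every CON level of Ccn2 there. Counts of 0 in so few nuclei do not show a loss of Ccn2. Over all nuclei it was 2.99, 2.63 and 4.86 CPM in CON and 0.1802, 0.258 and 2.62 CPM in SAP, giving a log2 fold change of -1.86 (SE 0.77, edgeR adjusted p = 0.577), which ran from -3.70 to -1.42 when 1 library was left out and was lowest without SAP replicate 3. The SAP effect in epithelial nuclei minus that in other nuclei was 1.97 on the log2 scale (SE 0.83, edgeR adjusted p = 0.765). Its epithelial side rests on 10, 3 and 21 UMIs in CON and 0, 2 and 13 UMIs in SAP, too few for Ccn2 to be tested there. In non-epithelial nuclei Ccn1 and Ccn2 were found together in 21 nuclei where independence within library and cluster gives 3.68. The limit from depth and doublets given for Areg and Ereg holds here too.

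The rarer genes seldom met in 1 epithelial nucleus. Of 30738 epithelial nuclei, 1617 (5.26%) held a UMI of at least 1 of Clu, Anxa1, Areg, Ereg, Ccn1 and Ccn2, 70 held at least 2 of these genes and 7 held at least 3. These low numbers do not show that the genes avoid one another. Clu and Ereg met in 15 nuclei where independence within library and cluster gives 7.60. Most pairs exceeded that expectation, which takes no account of depth differences within a cluster. Pairs under that expectation were Clu and Ccn1 (3 against 3.10), Anxa1 and Ccn1 (0 against 0.52), Anxa1 and Ccn2 (0 against 0.21), and Ereg and Ccn2 (0 against 0.55). SAP replicate 3 had the highest share with at least 1, 11.98%, and CON replicate 2 the lowest, 2.86%.

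Around the members, the lists of pathway genes also had 0 genes called in the epithelium by edgeR. Of the EGF family ligands, 7 of the 10 tested had a positive log2 fold change, with a median of 0.56. Hbegf, which encodes heparin-binding EGF, was 6.32 ± 2.66 CPM in CON and 21.8 ± 2.03 CPM in SAP (TMM-scaled, SD, n = 3 each), a log2 fold change of 1.78 (SE 0.37, edgeR adjusted p = 0.398). Tgfa, Egf and Nrg1 had log2 fold changes of -0.024, -0.32 and -0.055, and all 3 overlapped. Among receptors and their control, 12 of the 16 tested were positive, with a median of 0.42. Errfi1, a feedback inhibitor of the EGF receptor, was 108 ± 25.8 CPM in CON and 269.9 ± 96.5 CPM in SAP, with a log2 fold change of 1.32 (SE 0.32, edgeR adjusted p = 0.398). Egfr, the receptor, had a log2 fold change of 0.82 (SE 0.32, edgeR adjusted p = 0.421). Erbb3, a partner receptor, had 0.57 (SE 0.37, edgeR adjusted p = 0.576), and Adam17, the protease that sheds the ligands, -0.30 (SE 0.20, edgeR adjusted p = 0.599).

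The Hippo list was split, with 12 of 23 genes positive and a median log2 fold change of 0.030. Tead1, a DNA-binding partner of YAP, was 292 ± 10.2 CPM in CON and 209 ± 18.7 CPM in SAP, with a log2 fold change of -0.48 (SE 0.18, edgeR adjusted p = 0.421). Wwtr1, which encodes the YAP paralogue TAZ, had a log2 fold change of 0.059 and Lats2, a Hippo kinase, 1.13, and both overlapped. Of the YAP targets, 13 of the 19 tested were positive, with a median of 0.21. Amotl2 had a log2 fold change of 0.87 (SE 0.33, edgeR adjusted p = 0.421) and Axl -0.13. Ankrd1 was too low to be tested, with at most 30 UMIs in any library.

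Of the fetal-like and revival list, which holds Ly6al, Clu and Anxa1, 19 of the 23 genes tested were positive, with a median log2 fold change of 0.73. Anxa2, an annexin gene, was 160.1 ± 50.5 CPM in CON and 265 ± 15.6 CPM in SAP, with a log2 fold change of 0.73 (SE 0.25, edgeR adjusted p = 0.405). Anxa3 had 0.40, Il33 0.25 and Krt7 -0.36 on the log2 scale, and all 3 overlapped. Spp1, Anxa10 and Ccn3 were too low to be tested, with at most 17, 10 and 4 UMIs in any library. Ly6e, another Ly6 gene, was 55.2 ± 27.4 CPM in CON and 22.8 ± 11.9 CPM in SAP, with a log2 fold change of -1.28 (SE 0.56, edgeR adjusted p = 0.448). Of the remaining lists, 5 of 9 Ly6 genes tested and 7 of 11 annexin and formyl peptide receptor genes tested were positive, and of the CCN family Ccn1 alone was tested.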

How the data were processed

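Nuclei of 6 rat ilea, 1 library per rat, were analysed, with the rat as the replicate. The authors deposited whole-number counts of UMIs for each gene and barcode, without normalization. The submitters' processing notes name Seurat 4.3.0. Following the study's methods, nuclei were kept from 1200 UMIs and 500 genes upwards, with mitochondrial UMIs up to 5%. Log-normalized counts (scanpy 1.11.5) of 2000 variable genes, without the members and list genes, gave 30 principal components, which were aligned over libraries with a re-implementation of Harmony and clustered with Leiden at resolution 0.8. Clusters were named from marker lists, where the best list scored at least 0.5 and led the next by at least 0.8, and cluster 8, with both Paneth and stem markers, was left unnamed after the clusters were seen. Scrublet's automatic threshold marked 0 nuclei, so doublets were kept, and the 5% with the highest scores were removed as an alternative.

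UMIs were summed per library and class and tested with edgeR 4.0.16 (R 4.3.3, filterByExpr, TMM, robust quasi-likelihood, Benjamini-Hochberg adjustment over all genes tested in a fit), with DESeq2 1.42.0 as an alternative. Tested on simulated counts for all epithelial nuclei (16386 genes), 73.5% of 200 genes changed 4-fold were called, with 10 false calls. The changed genes were drawn from those averaging above 10 CPM. Clu, Anxa1, Ereg and Ccn1 averaged less in the epithelium and Ccn2 was not tested there, so that share does not describe them. The text names the 8 members, a set list of pathway genes, of which 1 is not reported here, and, by class pattern, the 3 genes most like a member. For single classes it gives log2 fold changes where the unadjusted p was under 0.05 or the groups did not overlap after TMM scaling. The members and lists were chosen with earlier results of these data known. The titles give CON and SAP libraries the same replicate numbers. Deviations of same-numbered libraries correlated at 0.635, 0.232 and 0.474 over all nuclei and at 0.619, 0.0839 and 0.348 over epithelial nuclei. Libraries of 1 group differed beyond counting noise (chi-square per degree of freedom 41.6 to 295). Intervals cover counting error only.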

Additional observations from a re-analysis of the deposited data

Results flagged for a closer look

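Some signals outside the tested classes lay above the level in each CON library. The barcodes entered no comparison, while the nuclei entered only the sums over all nuclei and over non-epithelial nuclei. In the barcodes, which had under 1200 UMIs, Ly6al averaged 1698 ± 139 CPM in SAP and 819 ± 481 CPM in CON (SD, n = 3 each). Areg averaged 19.1 ± 3.85 CPM in SAP and 11.02 ± 3.86 CPM in CON in the same barcodes. In classes with too few nuclei to test, Ly6al averaged 1313 CPM in mesothelial-like nuclei of SAP and 362 CPM in CON, and 1184 CPM in cluster 22 of SAP and 435 CPM in CON. These differences were not tested. Groups of 3 rats were not searched for single outlying rats.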

How the results depend on the processing

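Of 887 values under the alternatives, 805 kept their direction and their side of the threshold or stayed within the spread, and 38 changed sign. DESeq2 called 214 genes over all nuclei, 300 over epithelial nuclei and 741 over the single classes, against 0, 0 and 14 with edgeR. The filter on low counts left both tools 19187, 16841 and 152655 genes, with a gene counted once per single class. Its member calls were 1, 1 and 5, and the log2 fold change of Areg was 1.33 over all nuclei and 1.46 over epithelial nuclei. Over epithelial nuclei, library totals, no filter beyond 1 count and at most 1% mitochondrial UMIs each called 1 gene. Over single classes, library totals called 156 genes, no filter 2456 with 11 member calls, the depth covariate 8 and removal of likely doublets 40. With the replicate block 73 genes were called over single classes, no member call changed, and Ccn1 turned to -0.0022 over all nuclei and -0.057 over epithelial nuclei.

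Leaving out 1 library at a time gave 0 to 1 genes called over all nuclei, 0 to 1 over epithelial nuclei and 5 to 365 over single classes, most without SAP replicate 3 and 218 without CON replicate 3, with 0 to 1 member calls over single classes. The log2 fold change ran from -0.24 to 1.21 for Clu, -0.38 to 1.55 for Anxa1 and -0.86 to 0.58 for Ccn1 over all nuclei, and from -0.28 to 1.90 for Clu and -0.93 to 0.54 for Ccn1 over epithelial nuclei. The epithelial minus other difference ran from -0.59 to 0.22 for Ly6al, -0.23 to 1.08 for Clu, -0.91 to 1.21 for Anxa1, -0.47 to 0.086 for Yap1 and -0.21 to 0.57 for Ccn1. The enterocyte-like minus stem/TA-like difference ran from -0.15 to 1.56 for Clu and -1.72 to 0.14 for Areg. At a fixed class mix the SAP minus CON difference ran from -0.092 to 0.62 for Clu, -0.028 to 0.078 for Anxa1 and -0.073 to 0.12 for Ccn1, and the share of nuclei with a UMI, in percentage points, from -0.054 to 1.31 for Clu, -0.15 to 0.030 for Ccn1 and -0.069 to 0.023 for Ccn2. That share difference for Ccn1, -0.039 in nuclei thinned to 1200 UMIs, was 0.0034 at 1000 UMIs and 0.065 without thinning. Anxa1 epithelial minus other turned to 0.17 with library totals, 0.074 with no filter, 0.27 at 1% mitochondrial UMIs and 0.068 at resolution 0.4. Yap1 epithelial minus other turned to 0.13 at 1% mitochondrial UMIs, Clu enterocyte-like minus stem/TA-like to -0.024 at resolution 0.4, and Ccn1 at a fixed mix to -0.0068 with pooled class shares as weights. The causes were not tested. At 1% mitochondrial UMIs, 9 of the 18 classes gave no value. Few UMIs limit what can be said of Anxa1, Ccn1 and Ccn2 in the epithelium.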
